A study of Mus musculus with 12 samples.

Results

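Conventional dendritic cells of the neonatal mouse meninges were selected from single-cell RNA sequencing libraries, chosen by a set of counts of unique molecular identifiers (UMIs, 1 per captured RNA molecule). A cell was kept if it had 200 or more genes and at most 10% mitochondrial UMIs. It was called a conventional dendritic cell (cDC) if H2-Aa, H2-Ab1 and H2-Eb1 together reached 10 UMIs, Cd79a was at 0, Mrc1, Cd163, F13a1, Cbr2 and Pf4 together had at most 5, and Cd209a, Clec9a, Xcr1 and Flt3 together had at least 2. A cell was type 1 if Clec9a and Xcr1 together exceeded Cd209a, and type 2 otherwise. By this rule 181 of 21689 kept cells were cDCs, 40 of type 1 and 141 of type 2.

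The study profiled meningeal cells of C57Bl/6j mice at postnatal day 4, either naive or 6 h after hypoxia-ischemia (HI), an injury that models oxygen loss in the newborn brain. There were 2 naive and 2 HI gene expression libraries, each a pool of 12 pups, 6 male and 6 female. The sexes and the pups within a pool cannot be separated in these libraries. No sham-operated group was analysed here, so the effects of surgery and handling cannot be told apart from those of HI. The 4 libraries held 5122 (naive 1), 5945 (naive 2), 4212 (HI 1) and 6410 (HI 2) kept cells, with a median of 9766 to 11192 UMIs per cell. The cDCs numbered 47, 55, 27 and 52 in the same order, with median depths of 11792 to 14816 UMIs. Any 2 libraries shared 29 to 54 barcodes among kept cells, and no barcode was a cDC in both.

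Dendritic cells take up antigen, load peptides onto major histocompatibility complex (MHC) molecules and present them to T cells. Type 1 cells depend on the transcription factors IRF8 and BATF3, carry XCR1 and the dead-cell receptor CLEC9A, and are specialised in moving ingested antigen onto MHC class I (cross-presentation). Type 2 cells depend more on IRF4, carry C-type lectins and SIRPa, and mainly present to CD4+ T cells on MHC class II. In the meninges they lie in the dura and around the venous sinuses, and on maturation they raise CCR7 and leave for lymph nodes.

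The MHC class II genes that carried the gate are read from promoters with a Y box, a CCAAT sequence bound by NF-Y. Of 9 class II and class II loading genes looked up, 7 had a promoter in the RefSeq table of build GRCm38.p6. The letters GATTGG, or CCAATC on the other strand, were within the 250 bases before an annotated start of each of the 7, and in 14.6% of all 32851 promoters. For H2-DMa only 1 of its 2 listed starts had them. Below are the 150 bases before the start, 5′ to 3′ along the gene, with those letters in capitals, for the gated genes H2-Aa (chr17:34287824-34287973, minus strand) and H2-Eb1 (chr17:34305717-34305866, plus strand). H2-DMb2 (chr17:34145099-34145248, plus strand) and H2-Ob (chr17:34238755-34238904, plus strand) are shown because they differed in opposite directions between the 2 types, as described below.
H2-Aa: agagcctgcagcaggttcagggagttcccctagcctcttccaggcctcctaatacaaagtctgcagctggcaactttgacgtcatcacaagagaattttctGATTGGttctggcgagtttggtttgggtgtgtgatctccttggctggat
H2-Eb1: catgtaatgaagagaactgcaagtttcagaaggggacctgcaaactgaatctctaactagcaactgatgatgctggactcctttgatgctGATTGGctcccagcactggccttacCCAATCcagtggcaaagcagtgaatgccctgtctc
H2-DMb2: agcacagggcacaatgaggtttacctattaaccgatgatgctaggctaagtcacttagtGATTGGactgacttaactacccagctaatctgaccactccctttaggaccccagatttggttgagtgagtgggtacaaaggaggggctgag
H2-Ob: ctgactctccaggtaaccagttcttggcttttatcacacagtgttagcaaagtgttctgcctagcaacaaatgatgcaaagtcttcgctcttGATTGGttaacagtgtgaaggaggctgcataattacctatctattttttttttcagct
The GATTGG letters begin 49 bases before the start in H2-Aa, 58 in H2-Ob, 60 in H2-Eb1 and 91 in H2-DMb2, and H2-Eb1 also holds CCAATC nearer to its start. These are letter matches and no binding was measured.

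The genes used for the choice of cells are given as a description. H2-Aa, a class II alpha chain, was at 12184 and 13313 CPM (a gene's UMIs over all UMIs of the same summed cells, scaled to a common total) in the summed cDCs of naive 1 and naive 2, and at 10628 and 12697 in HI 1 and HI 2. All other kept cells were at 49.3 to 101 CPM. The 2 types hardly overlapped in the genes that split them. All 40 type 1 cells were at 0 Cd209a, a C-type lectin, and held 1 to 55 UMIs of Clec9a. Of the 141 type 2 cells, 132 had Cd209a without Clec9a or Xcr1, 1 cell had both Cd209a and Clec9a at 1 UMI, and 8 entered on Flt3 alone. Those 8 had a median of 50.5 class II UMIs, against 392 in the 132 cells with Cd209a.

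**Figure D1:**
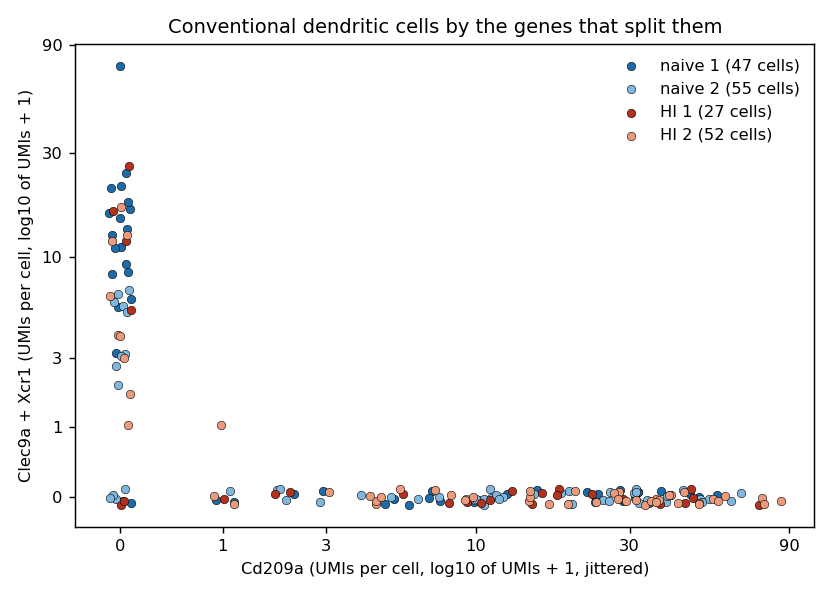
Each point is 1 of the 181 cDCs, placed by its Cd209a UMIs (x) and its summed Clec9a and Xcr1 UMIs (y), both on a log10 scale of UMIs + 1, coloured by library. The 40 type 1 cells stand at 0 Cd209a, and all but 1 type 2 cell lie at 0 on the y axis.

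The class II limit fell in a gap, and the other limits ran through populated ranges. No cell that met the other limits had 5 to 9 class II UMIs, while 1 member had 10 to 14. The macrophage limit had 26 members with 4 to 5 UMIs of the 5 macrophage genes and 14 cells outside it with 6 to 7. The dendritic gene limit had 11 members with 2 UMIs, 16 cells outside it with 1, and 40 with 0. The 14 cells just past the macrophage limit had a median of 27.5 dendritic gene UMIs, and the members just inside it had 19.5.

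Genes outside the rule were checked against the name. Zbtb46, a transcription factor of the cDC lineage, was at 27.2 to 51.3 CPM in the cDCs of the 4 libraries, and at 11.0 to 13.4 CPM in all other kept cells. The lowest cDC value, in naive 2, lies above all 4 values of the other cells. Type 1 cells were at 72.2 to 117 CPM and type 2 cells at 12.8 to 32.5, the latter overlapping the 14.4 to 19.2 of MHC class II positive macrophages, the 81 cells that met the class II and Cd79a limits with more than 5 macrophage gene UMIs. Bcl11a, a factor needed for dendritic cell development, was at 44.7 to 100 CPM in cDCs and at 3.40 to 6.29 in the other cells. Csf1r, the macrophage growth factor receptor, was at 96.3 to 167 CPM in cDCs, at 775 to 1390 in the MHC class II positive macrophages and at 2176 to 2456 in all other kept cells. The 18 meningeal macrophage markers summed to 321 to 873 CPM in cDCs and to 14494 to 22318 in those macrophages. These 2 classes were split on the 5 macrophage genes of the rule. A contrast in other macrophage genes, Csf1r included, was thus favoured by the choice of cells and is no independent check. No cDC barcode had a productive B or T cell receptor contig, though kept cells of each library held 29 to 94 barcodes with B cell contigs and 25 to 33 with T cell contigs. Those were only 286 and 113 of 21689 kept cells, and the Cd79a limit already left out cells with that B cell gene. Their absence among 181 cDCs is thus a weak check.

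Conventional dendritic cells made up less than 1% of meningeal cells in every library, and their share was lower after HI in both libraries by a margin that an exact test over 4 libraries cannot call. They were 0.918% of kept cells in naive 1 (95% exact Clopper-Pearson interval 0.675 to 1.22), 0.925% in naive 2 (0.698 to 1.20), 0.641% in HI 1 (0.423 to 0.931) and 0.811% in HI 2 (0.606 to 1.06). The naive mean was 0.921% ± 0.00533 (SD, n = 2) and the HI mean 0.726% ± 0.120 (SD, n = 2; two-sided exact permutation p = 0.33). That is the smallest p that 2 against 2 libraries allow, and the intervals cover counting error only. With each cell thinned to 3000 UMIs the difference went from -0.195 to -0.0567 percentage points.

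Type 1 cells were 0.351% of kept cells in naive 1, 0.151% in naive 2, 0.0950% in HI 1 and 0.140% in HI 2 (exact permutation p = 0.33, n = 2 per group). The groups did not overlap, but naive 1 stood apart from the other 3 libraries, and without it the difference went from -0.134 to -0.0337 percentage points, while that of type 2 went from -0.0615 to -0.165. Within cDCs, type 1 cells were 38.3% in naive 1 and 14.8% to 17.3% in the other 3 libraries. Type 2 cells were 0.566% and 0.774% in the naive libraries and 0.546% and 0.671% in the HI libraries, with overlapping groups (exact permutation p = 0.67, n = 2 per group). The sign of their difference turned without naive 2 or without HI 1, and when cells were thinned. The number of other kept cells also varied between libraries, so a share cannot show whether cDCs left or other cells arrived. MHC class II positive macrophages were 0.508% and 0.404% in the naive and 0.285% and 0.296% in the HI libraries.

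**Figure D2:**
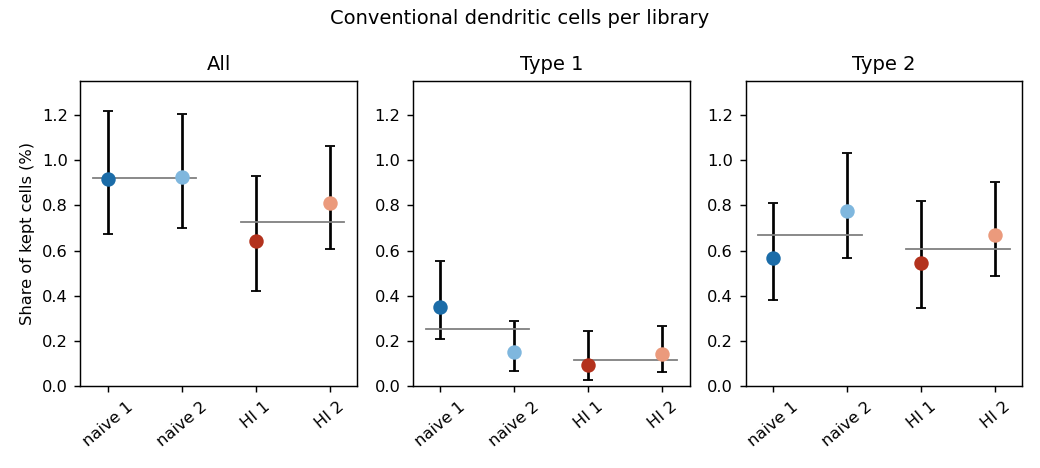
Share of kept cells (%) for all cDCs, type 1 and type 2 in each library. Points are libraries, bars are 95% exact binomial intervals for counting error and grey lines are group means. The intervals of all 4 libraries overlap for all cDCs, and naive 1 is highest for type 1 at 0.351%.

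The 2 types differed in many genes beyond the 3 that split them, and the known type 1 genes stood higher in type 1 cells in every library. UMIs were summed per library and type, and the 8 sums were fitted with the library as a block. The edgeR quasi-likelihood test called 569 of 3778 genes (15.1%) at a Benjamini-Hochberg adjusted p of 0.05, 281 higher in type 1 (7.44%) and 288 higher in type 2 (7.62%). Of the cDC1 programme, 18 of the 18 members tested of 24 listed were higher in type 1, with a median log2 difference of 3.07, against 0.00 over all genes tested. Of the cDC2 programme, 16 of 19 members tested were higher in type 2 and none was higher in type 1, with a median of -3.20. Both medians were the same with genes at 0 UMIs in a type set at their bound. These lists are textbook programmes and the direction was known, and filtering on counts favours members that are high in 1 type. The sum for type 1 in HI 1 rests on 4 cells, and type 1 cells were deeper, with a median of 15984 UMIs against 12862.

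Among the factors that set the type 1 fate, Irf8 was at 1866, 1742, 2560 and 2263 CPM in type 1 cells of naive 1, naive 2, HI 1 and HI 2, and at 123, 218, 141 and 105 CPM in type 2 cells. The lowest type 1 value exceeded the highest type 2 value by several-fold (log2 difference 3.79, SE 0.22, edgeR adjusted p = 2.76e-07). An Irf8 UMI was present in 97.5% of type 1 and 17.0% of type 2 cells, and in 8.51% of type 2 cells once each cell was thinned to 3000 UMIs. All other kept cells, which include cell types with their own Irf8, had one in 77.6%, or 42.9% thinned. The 7 type 2 cells with plasmacytoid genes described below held 254 of the 279 Irf8 UMIs of type 2. Batf3, the partner of IRF8, was at 120 to 309 CPM in type 1 and 65.0 to 105 in type 2 (log2 difference 0.98, adjusted p = 0.0205 by edgeR). Id2, which represses alternative fates, was at 1605 to 1890 against 421.7 to 677 CPM (log2 difference 1.65, adjusted p = 3.76e-06 by edgeR).

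Several type 1 genes were close to absent from type 2 cells. Gcsam, a signalling adaptor of lymphoid cells, had 85 UMIs in 30 of 40 type 1 cells and 0 in 141 type 2 cells, at least 76.6-fold higher against a floor of 3 UMIs over the group. Snx22, a sorting nexin, had 204 against 3 UMIs, a ratio of CPM of 184 (95% counting interval 62.0 to 899). Itgae, the CD103 integrin chain, had 102 against 2 UMIs, a ratio of 138 (37.2 to 1154). Tlr3, the receptor for double-stranded RNA, had 118 against 3 UMIs, a ratio of 106 (35.5 to 523). Rab7b, a small GTPase of late endosomes, was at 322 to 352 CPM in all 4 type 1 sums and at 2.89 to 9.16 CPM in type 2. Pdia5, Cd24a, Cxcr3, Cadm1, Gpr65, Ifi205 and Cd36 followed, with log2 differences of 3.82 to 4.90 and adjusted p from 3.02e-07 to 4.06e-05 by edgeR. Cadm1 is an adhesion molecule, Cxcr3 a chemokine receptor and Cd36 a scavenger receptor. Kit, the stem cell factor receptor, had 15 UMIs over all type 1 cells and 5 over type 2 cells and was not tested.

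Type 2 cells carried a group of C-type lectins that type 1 cells lacked. Mgl2 was at 568, 716, 659 and 912 CPM in the type 2 sums of naive 1, naive 2, HI 1 and HI 2, and at 0 in each type 1 sum. Its 1368 UMIs make it at least 169-fold higher, against a floor of 3 UMIs over the 40 type 1 cells. By the same measure Clec10a was at least 105-fold, Clec4b1 70.5-fold, Cd209c 66.3-fold, Cd209d 56.2-fold and Cd209b 26.0-fold higher. Cd209b, Cd209c and Cd209d are close relatives of the gated gene Cd209a, and reads shared among such copies cannot be told apart in these counts. Outside the lectins, Emilin2, a matrix glycoprotein, was at least 17.0-fold, Il1rl1, the interleukin-33 receptor, 16.5-fold, and Kcne3, a potassium channel subunit, 15.8-fold higher. Pltp, a phospholipid transfer protein, had 585 UMIs in type 2 and 1 in type 1, a ratio of 216 (38.7 to 8558). Of the cDC2 list, Sirpa was at 185 to 249 CPM in type 2 and 0 to 54.5 in type 1, and Irf4 at 37.6 to 51.2 against 0 to 17.1. Ly6d and Upb1, also among the genes most raised in type 2, came wholly and in part from the 7 cells described below.

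**Figure D3:**
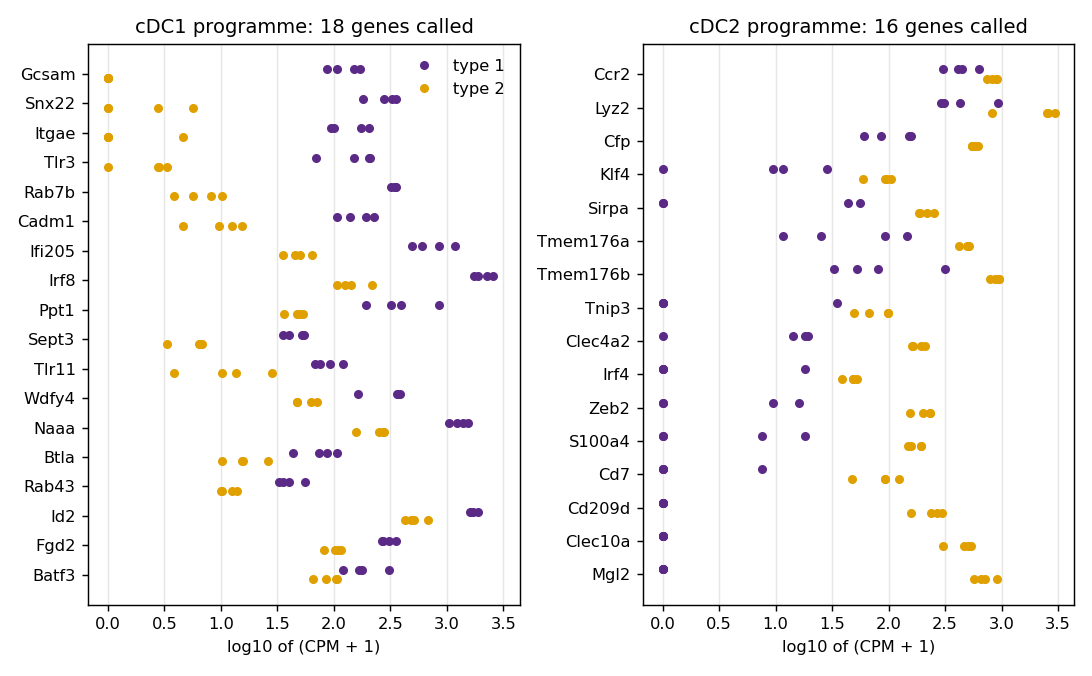
Each row is a gene of the cDC1 (left, 18 genes) or cDC2 (right, 16 genes) programme called between the types, and each point is 1 library's sum as log10 of (CPM + 1), purple for type 1 and yellow for type 2. The 4 purple points lie to the right of the 4 yellow points for each cDC1 gene; for Lyz2 on the right the 2 types overlap.

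Antigen presentation split between the types. Of 20 MHC class I and cross-presentation genes tested, 10 were higher in type 1 and 3 in type 2. Psmb9, a subunit of the immunoproteasome that cuts peptides for class I, was at 736, 615, 672 and 630 CPM in type 1 and 172, 132, 95.3 and 108 CPM in type 2 (log2 difference 2.33, SE 0.17, adjusted p = 1.55e-06 by edgeR). Tap1 and Tap2, which carry peptides into the endoplasmic reticulum, differed by 2.09 and 2.30 on the log2 scale. Wdfy4, which is needed for cross-presentation, differed by 2.41 and Psmb8 by 1.47. B2m, the light chain of class I, went the other way at 531 to 927 CPM in type 1 and 795 to 1179 in type 2 (log2 difference -0.51, adjusted p = 0.0203 by edgeR). Cybb, the catalytic chain of the phagocyte oxidase, differed by -4.17 and Rac2, its GTPase, by -1.05.

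Of 14 class II loading genes tested, 5 were higher in type 2 and 2 in type 1. H2-DMb2, a chain of the DM exchange factor that loads peptides, was at 235, 249, 147 and 226 CPM in type 2 and 66.6, 93.9, 128 and 98.4 CPM in type 1 (log2 difference -1.29, SE 0.24, adjusted p = 0.00253 by edgeR). H2-DMa differed by -0.60, the invariant chain Cd74 by -0.56, the protease Ctss by -0.96 and the thiol reductase Ifi30 by -0.81. H2-Ob, a chain of the DO protein that restrains DM, was at 133, 196, 21.3 and 105 CPM in type 1 and at 30.2, 33.0, 23.1 and 32.5 in type 2 (log2 difference 1.86, SE 0.34, adjusted p = 0.00215 by edgeR). Its HI 1 value in type 1, from 4 cells, lies below all 4 type 2 values. March1, a ligase that removes class II from the surface, differed by 1.04.

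Other lists divided as follows, where 15.1% of all genes tested were called between the types. Of 13 shared cDC genes tested, 8 were higher in type 1, led by Cd24a, Cst3, a protease inhibitor (log2 difference 1.86), and Zbtb46 (1.76). Of 18 homing and adhesion genes, 4 were higher in type 1 (Cxcr3, Itgb7, P2ry10, Selplg), and Ccr2 and Ccr1 were among those higher in type 2. Ccr2, the receptor that draws cells from blood, was at 299 to 630 CPM in type 1 and 748 to 900 in type 2. Of 8 pattern recognition genes, Tlr3, Tlr11 and Unc93b1, the chaperone of endosomal Toll-like receptors, were higher in type 1 and Clec4n, the Dectin-2 receptor, in type 2. The chemokines Ccl9 and Ccl6 were higher in type 2 (log2 differences -7.04 and -1.83; Ccl9 had 2 UMIs in type 1, and its 795 UMIs in type 2 give a ratio of 147). Cxcl16 was higher in type 1, at 74.6 to 205 CPM against 5.42 to 90.7. The replication genes Pcna, Mcm3 and Mcm5 were called higher in type 2 among 20 cell cycle genes tested, a share near that over all genes. The list median was 0.04, and Pcna overlapped between the types, at 42.7 CPM in type 1 and 42.1 in type 2 of naive 2. The maturation genes Cd86 and Cd83 were higher in type 1 among 8 tested, and 40 of the 108 Cd83 UMIs of type 1 lay in 1 cell.

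Irf7, an interferon-induced factor, was called higher in type 1 but its libraries split within the type. It was at 612 and 917 CPM in type 1 of naive 1 and HI 1, and at 93.9 and 59.0 in naive 2 and HI 2, against 14.4 to 64.1 in type 2. Isg15, an interferon-induced modifier, showed the same order in type 1 at 367, 8.54, 501 and 6.56 CPM in naive 1, naive 2, HI 1 and HI 2. Irf7 UMIs lay in 12 of 18, 6 of 9, 2 of 4 and 3 of 9 type 1 cells in that order, and 1 cell held 105 of all 308. Those of Isg15 lay in 6, 1, 2 and 1 cells, so the high values rest on few cells. The libraries numbered 1 were high and those numbered 2 low, in both groups. The labels do not tie these numbers to the 2 runs, and any part of a run in this was not tested.

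Within the type 2 gate, 7 cells had a different set of genes. All 7 held 9 to 40 UMIs of Siglech, 4 to 74 of Ly6d, 9 to 24 of Mzb1 and 4 to 36 of Ccr9, markers of plasmacytoid dendritic cells, which make type I interferon. Of the other 134 type 2 cells, 2 had a Siglech UMI, 2 a Ccr9 UMI and none a Ly6d or Mzb1 UMI. The 7 cells had a median of 40 class II UMIs against 392 in the other type 2 cells, and 3 of the 7 had any Mgl2. There were 1, 3, 1 and 2 of them in naive 1, naive 2, HI 1 and HI 2. They were picked after their values were seen. Without the 12 cDCs that had 10 or more UMIs of other-lineage markers (S100a8, S100a9, Cd3d, Cd3e, Ly6d, Siglech, P2ry12, Cpa3), the comparison of types called 594 of 3126 genes. All 16 cDC1 genes then tested were still higher in type 1. Of 18 cDC2 genes 16 were higher in type 2, and Clec12a, an inhibitory lectin, was called higher in type 1 (log2 difference 0.94, edgeR adjusted p = 0.0112). Of the class II loading genes named above, Cd74 no longer passed (edgeR adjusted p = 0.0568) and H2-Ob fell below the count filter, as did Ly6d and Mzb1. Of the plasmacytoid list, 8 of 9 members tested were higher in type 2 with these cells.

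A few more cells carried genes of other lineages. Of 3 cells with neutrophil genes, 1 type 2 cell of HI 1 held 1693 S100a8 and 1879 S100a9 UMIs among 33575. A type 1 cell of HI 2 held 11 Cd3e, 20 Trdv4 and 14 Cd163l1 UMIs, genes of gamma-delta T cells. Of 2 type 1 cells with complement C1q, the one in naive 1 held 57 C1qa and 68 P2ry12 UMIs, and the one in naive 2 held 46 C1qa and no P2ry12 UMIs. The doublet scores marked 3 of the 7 cells above, the neutrophil-marked cell of HI 1 and the T cell-marked cell of HI 2. Whether the others are doublets was not tested.

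No gene passed the test of HI against naive in all cDCs. The edgeR quasi-likelihood test called 0 of 6113 genes (0%), with 308 at an unadjusted p under 0.05, and DESeq2 called 6, 3 in each direction. Groups of 2 libraries did not overlap in CPM for 33.7% of genes. The 5 genes with the smallest p did not pass, and for 4 of them 2 cells held most of the naive UMIs. C1qa, a chain of the complement starter C1q, was at 80.3, 73.9, 15.9 and 8.50 CPM in naive 1, naive 2, HI 1 and HI 2 (log2 difference -2.73, edgeR adjusted p = 0.156). The 2 naive cells with C1q described above held 93.6% of its naive UMIs. Igkc, the immunoglobulin kappa constant region, had 59 UMIs in naive and 0 in HI cDCs, all of them in 2 of the cells with plasmacytoid genes (edgeR adjusted p = 0.242). Ccr7, the receptor for migration to lymph nodes, was at 48.7 and 154 CPM in the naive libraries and 0 in HI, all of it in 2 cells with 37 and 102 UMIs (edgeR adjusted p = 0.300). Il4i1, an amino acid oxidase of mature dendritic cells, had 83.6% of its naive UMIs in the same pair of cells.

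Marcksl1, an actin-binding substrate of protein kinase C, was spread over more cells. It was at 172, 169, 77.3 and 77.9 CPM in naive 1, naive 2, HI 1 and HI 2, found in 88 of 181 cells (log2 difference -1.13, SE 0.19, edgeR adjusted p = 0.300). The 2 naive libraries were alike and above both HI libraries. The 2 largest naive cells held 31.3% of its naive UMIs. Without these 12 cells and 3 with 10 or more UMIs of the maturation genes Ccr7, Fscn1, Ccl22 and Cacnb3, 15 in all, its log2 difference went to -0.52. The C1q cell of naive 2 had 4 UMIs of the other-lineage markers and was not among the 15. Lmna, a nuclear lamin, had 18.0% of its naive UMIs in the 2 largest cells and was then first by p, with a log2 difference of -1.31 and an adjusted p of 1.00 by edgeR. Of the 20 genes with the smallest p, 9 had more than 50% of the UMIs of their higher group in 2 cells.

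**Figure D4:**
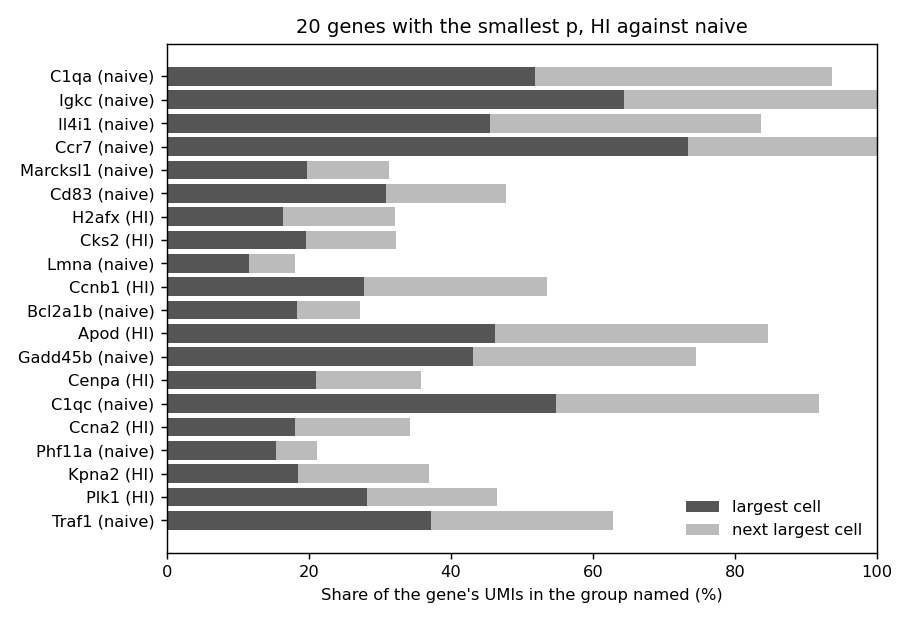
For the 20 genes with the smallest p between HI and naive cDCs, in order of p from the top, bars give the share (%) of the gene's UMIs that its largest (dark) and next largest (light) cell held, within the group named in brackets, which had the higher level. Ccr7 and Igkc reach 100% with 2 of 102 naive cells, and Lmna reaches 18.0%.

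Maturation genes were lower in HI over all cDCs without passing, and less so once a few cells were left out. Of 31 listed genes of dendritic cell maturation and migration, 17 were tested, 15 had a negative difference and 13 were lower at an unadjusted p under 0.05 (median log2 difference -1.36, against 0.01 over all genes), and 0 passed. Macrophage and microglia markers were lower in the same fit, as given below. Cd83, a surface marker of maturation, was at 76.3, 109, 22.7 and 31.2 CPM in naive 1, naive 2, HI 1 and HI 2, with both naive libraries above both HI libraries. Cd86, the costimulator of T cells, was at 88.1, 78.4, 47.7 and 46.7 CPM (log2 difference -0.82, edgeR adjusted p = 0.696). Traf1 was at 78.9 and 39.2 CPM in naive and 11.4 and 17.0 in HI. The 2 largest naive cells held 47.7% of the naive UMIs of Cd83 and 62.8% of those of Traf1. Without the 15 cells named above, 11 maturation genes were tested and their median was -0.30. Of these, 8 were negative, 2 were lower and 1 was higher at an unadjusted p under 0.05. Some of the 17 thus passed the count filter only with those cells. For a gene that passed through a few naive cells, a lower HI value was built in. Of 16 NF-kB targets tested, 15 had a negative difference (median -0.73, or -0.27 without the 15 cells), led by Cd83, Bcl2a1b and Nfkbia. The 3 cells with 10 or more UMIs of maturation genes were all naive, 2 in naive 1 and 1 in naive 2. They were 3 of 102 naive cells, and a count of 0 among 79 HI cells allows up to 3.80%. These counts cannot show a loss of such cells.

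Cell cycle genes were higher in HI without passing. Of 27 tested, 20 had a positive difference and 14 were higher at an unadjusted p under 0.05 (median log2 difference 1.20). Ccnb1, the cyclin of mitotic entry, was at 9.21, 6.03, 189 and 41.1 CPM in naive 1, naive 2, HI 1 and HI 2 (edgeR adjusted p = 0.535). HI 1 was highest, and the 2 largest of 79 HI cells held 53.6% of the HI UMIs. Ube2c, which marks mitotic proteins for destruction, was at 105, 28.7, 600.1 and 186 CPM. Cells with 3 or more UMIs of Mki67 and Top2a, markers of dividing cells, were 8 of 47, 2 of 55, 6 of 27 and 3 of 52 cDCs in the same order, and these shares overlapped between groups. In type 2 cells alone the median cell cycle difference was 0.28. The 31 listed genes summed to 6404, 2865, 7568 and 2805 CPM in type 2 cells of naive 1, naive 2, HI 1 and HI 2, with overlapping groups. In both groups the library numbered 1 was above the library numbered 2, for these sums and for the shares of dividing cDCs. In type 1 cells the listed genes summed to 1932, 2895, 8905 and 7519 CPM, where both HI sums, from 4 and 9 cells, lie above both naive sums. Of the type 1 cells, 2 of 18, 0 of 9, 1 of 4 and 2 of 9 had 3 or more UMIs of Mki67 and Top2a, in the same order. The HI sums may thus rest on very few cells. Groups of 2 libraries did not overlap in CPM for 33.7% of genes in all cDCs.

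Markers of other cell types also differed in the same fit without passing. Of 5 meningeal macrophage markers tested, 4 were lower in HI at an unadjusted p under 0.05 (median -1.45, or -0.52 over 4 tested without the 15 cells). All 6 microglia markers tested were negative and 4 were lower at that p (median -0.59, or -0.36 over 5 tested without the 15 cells). The 3 neutrophil markers tested had a median of 3.72 and the 2 T and innate lymphoid markers 0.67. The part of such cells in the differences of other lists was not tested beyond leaving out the 15 cells.

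The other lists of cell programmes had smaller medians. Of 22 hypoxia and glycolysis genes tested, 17 had a positive difference and none had an unadjusted p under 0.05 (median 0.15). Of 13 glucocorticoid response genes, 6 were positive (median -0.09). Ddit4, a stress-induced inhibitor of growth signalling, was at 17.1, 31.7, 45.5 and 90.6 CPM (edgeR adjusted p = 0.696). Of 19 immediate-early genes, 15 were negative (median -0.31). Of 19 interferon genes, 15 were negative (median -0.27), and of 20 class I genes, 19 were negative (median -0.29). The cDC1 programme was negative for 17 of 18 (median -0.36), beside the larger share of type 1 cells in naive 1. Many class I genes were also higher in type 1 cells, as given above. The part of the type mix in either list was not tested. The cDC2 programme had a median of 0.07.

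**Figure D5:**
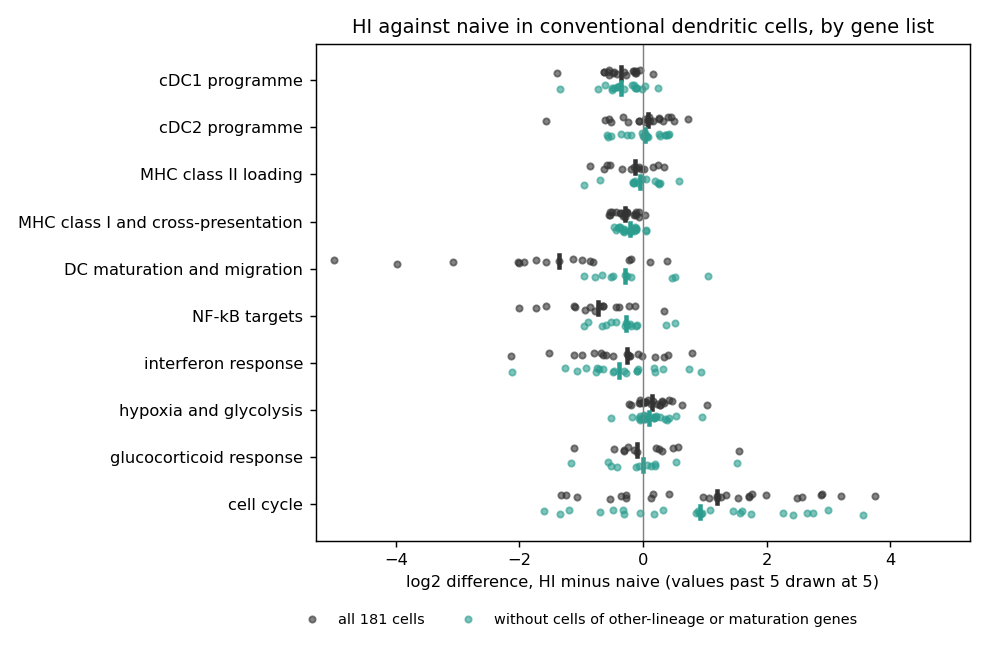
Log2 differences, HI minus naive, for genes of 10 lists in all 181 cDCs (dark) and in the 166 cells left after removing those with 10 or more UMIs of other-lineage or maturation genes (green). Points are genes, short lines are medians, and 1 gene (Ccr7) past -5 is drawn at -5. The maturation median moves from -1.36 to -0.30, and the cell cycle median from 1.20 to 0.93.

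In type 2 cells alone, 0 of 5003 genes passed (0%), with 211 at an unadjusted p under 0.05, and DESeq2 also called 0. Igkc again had the smallest p, from the same 2 cells. Apod, a lipocalin, had 3 UMIs in all naive cDCs and 39 in all HI cDCs, of which 2 cells held 84.6%. Wfdc17, an antiprotease of myeloid cells, was spread more widely, at 561, 674, 1051 and 981 CPM in type 2 cells of naive 1, naive 2, HI 1 and HI 2 (log2 difference 0.74, SE 0.16, edgeR adjusted p = 1.00). It was found in 133 of 181 cDCs, with no more than 89 UMIs in a cell. Srsf2, a splicing factor, was at 67.5, 112, 43.3 and 21.7 CPM (log2 difference -1.53), and Marcksl1 at 233, 148, 98.2 and 70.4. For each of these genes the groups did not overlap, as for 32.5% of all genes tested.

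Type 1 cells were too few for a test, with 4 in HI 1 against a minimum of 5 per library set in the design. Their programme genes are given as values. Irf8 was higher in both HI libraries than in both naive ones, at 1742 to 1866 CPM in naive and 2263 to 2560 in HI. In naive 2 the cell with 102 Ccr7 UMIs gave 17317 of the 117112 UMIs summed and held no Irf8, which lowers that value. Gcsam was at 106 and 85.4 in the naive and 149 and 171 CPM in the HI libraries, where HI 1 had 14 UMIs in 2 cells. Ppt1, a lysosomal thioesterase, was at 848 and 393 in the naive and 192 and 322 CPM in the HI libraries. Such lack of overlap was common, at 33.7% of genes in all cDCs and 32.5% in type 2 cells. Rab7b, at 348, 350, 352 and 322 CPM, and Id2, at 1644, 1605, 1685 and 1890, spanned narrow ranges. Cxcl9, a chemokine that draws T cells, had no UMI in any type 1 cell, which allows up to 3 UMIs among 693491.

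The HI difference in cDCs was compared with that in the 81 MHC class II positive macrophages of the same libraries. Of those 81 cells, 58 also met the dendritic gene limit, so the 2 classes are not cleanly apart. The edgeR test of the class by HI interaction called 1 of 5838 genes (0.0171%), with 306 at an unadjusted p under 0.05. That gene was C1qa (log2 difference of differences -2.93, SE 0.36, edgeR adjusted p = 0.00768). The macrophages were at 1551, 2262, 2169 and 1949 CPM in naive 1, naive 2, HI 1 and HI 2, with overlapping groups, and the cDC values rest on the 2 naive cells named above. Without the 12 cells of other-lineage markers the C1qa difference was -1.81 and no longer passed, with an edgeR adjusted p of 0.916, though the naive 2 cell with 46 C1qa UMIs was still in it. Without HI 2 it was -2.50 with an edgeR adjusted p of 0.171. The 1 gene called without those 12 cells was Il1b, an inflammatory cytokine, with 128 of its 187 cDC UMIs in 1 naive cell. Next by p, Cd9, a tetraspanin, was level in cDCs at 396, 433, 482 and 500.0 CPM and was at 722, 427, 192 and 201 CPM in the macrophages (edgeR adjusted p = 0.186). Sirpb1c, C1qc and C1qb followed without passing.

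Against all other kept cells, 134 of 13690 genes (0.979%) were called for an HI difference that differed in cDCs. Of these, 78 were more positive (0.570%) and 56 more negative (0.409%). Without the 15 cells with other-lineage or maturation genes the count was 59, and without HI 1 it was 88. Cell cycle genes led the positive side, with 15 of 31 called in all cDCs and 12 of 31 in the 166 cells left. Ube2c had an interaction of 2.59 (SE 0.24, edgeR adjusted p = 4.66e-23). The other kept cells were level for it, at 90.6, 103, 83.3 and 83.2 CPM. The cDCs were at 105 and 28.7 CPM in naive and 600.1 and 186 in HI. This SE and p do not reflect that spread within groups. The fit set cDC sums of 439950 to 760079 UMIs beside sums of 51543007 to 67789497 UMIs of the other cells. Its p-values can understate the spread between cDC sums, and it called genes held mostly by 1 cell. Of 29 maturation genes 10 were called more negative, among them Ccr7, Ccl22 and Ccl17, the last with 200 UMIs in naive and 40 in HI cDCs, of which 1 naive cell held 145. None of the maturation genes was called in the 166 cells left. Of 17 T and innate lymphoid markers 5 were called more positive. For Cd3e and Cd163l1, 1 HI 2 cell held all 11 and all 14 UMIs, while Klrd1, a lectin-like chain also found on NK cells, was spread over 56 cDCs, 54 of them type 2. Klrd1 was at 36.8, 72.4, 186 and 94.9 CPM in cDCs of naive 1, naive 2, HI 1 and HI 2, and stayed called in the 166 cells left (edgeR adjusted p = 0.00161). The other kept cells were lower for it in HI, at 2.73, 4.63, 1.09 and 2.61 CPM in the same order. Those cells are a mixture, and the part of its make-up in such differences was not tested. Within cDCs alone Klrd1 did not pass (log2 difference 1.33, edgeR adjusted p = 0.696). Of 12 neutrophil markers 3 were called more positive, and 1 HI 1 cell held 63 of 65 Ngp and all but 17 of 445 Retnlg UMIs.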

How the data were processed

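Each library was deposited as a matrix of raw UMI counts, which the authors had not normalized as far as the values show, and the deposited receptor tables hold counts of reads and UMIs for every contig. Per the labels' protocols, libraries were made with 10x Genomics 5' kits. The submitters' processing notes name the tools Cell Ranger 2.2.0 and Seurat and the builds mm10 and GRCm38, without the steps. The matrices had 28694 gene rows, 28341 of which matched the gene table. Cell types, members and gene lists were rebuilt by rule, with earlier results of these data known. Doublets were scored with Scrublet (scanpy 1.11.5) and not removed.

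UMIs were summed per library over each class, and CPM were taken within that sum (439950 to 760079 UMIs for all cDCs). edgeR 4.0.16 (R 4.3.3; filterByExpr, TMM, quasi-likelihood, 2-sided, Benjamini-Hochberg threshold 0.05) was the main test, DESeq2 1.42.0 an alternative. A thinned value draws 3000 UMIs per cell. The result of 1 gene is not reported here. The 13 genes of the rule were not counted or tested. Genes that passed, and whose libraries did not overlap in CPM between groups, were named by size of difference (gene models named Gm plus digits or ending in Rik left out), up to 12 each way between types and 6 in interactions. Where fewer than 5 passed, the 5 smallest p were named. List members that passed were named as space allowed. Genes named otherwise were chosen after their values were seen. Libraries are pools, and nothing says that they came from separate litters, so p-values measure at most the spread between these libraries. In the fit against all other kept cells the p-values can understate the spread between cDC sums. The tests were checked on simulated data.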

Additional observations from a re-analysis of the deposited data

Results flagged for a closer look

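Tests of the difference between cell classes marked these results. Between cDCs and MHC class II positive macrophages 1 gene differed in its HI difference, C1qa (-2.93 on the log2 scale). Between cDCs and all other kept cells 134 genes were called, of which the 6 most extreme in each direction follow. Fitted log2 differences of genes at 0 UMIs in a group depend on the prior count and are no bound.

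The largest positive differences were those of Trdv4 (13.35), Cd163l1 (13.19), Aqp3 (12.47), Nek2 (12.29), Cd3g (12.11) and Cxcr6 (12.01), all at 0 UMIs in naive cDCs. In HI cDCs Trdv4 had 20 UMIs, Cd163l1 14, Cd3g 11 and Cxcr6 9, each in 1 cell of HI 2. Aqp3, a glycerol channel, had 10 UMIs in 3 cells of HI 2, and Nek2, a mitotic kinase, had 16 UMIs in 5 cells of both HI libraries.

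The largest negative differences were those of Ccl22 (-16.19), Ccr7 (-14.74), Ccl2 (-13.74), Igkc (-13.23), Crybb1 (-13.01) and Olfm4 (-12.14), all at 0 UMIs in HI cDCs. In naive cDCs the largest cell held 71 of 82 Ccl22, 102 of 139 Ccr7, 53 of 59 Ccl2, 38 of 59 Igkc, 41 of 42 Crybb1 and all 4 Olfm4 UMIs. Olfm4, a granule protein of neutrophils, was at 10.2 and 8.79 CPM in the other naive cells and at 62.8 and 47.2 CPM in the other HI cells.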

How the results depend on the processing

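For the share of all cDCs the difference was -0.195 percentage points and stayed negative under every alternative run, from -0.280 to -0.110 leaving out 1 library. It moved to -0.0567 with cells thinned to 3000 UMIs and to -0.610 over kept cells with at most 5 macrophage gene UMIs, where that of type 1 moved from -0.134 to -0.508. Leaving out 1 library gave -0.234 to -0.0337 for type 1. The type 2 difference of -0.0615 reversed to 0.0538 with thinning, and to 0.0423 without naive 2 and 0.000855 without HI 1, from -0.165 to 0.0423 over the 4 libraries left out. For HI genes in cDCs, called 0 times, DESeq2 called 6, no filter on low counts 162, and leaving out 1 library 0 to 107 (0 without naive 2, 74 without HI 1, 104 without HI 2 and 107 without naive 1). In type 2 cells no filter called 84, and leaving out 1 library 37 to 96, the lowest without HI 1 and the highest without HI 2. The library numbers are shared between groups, but no label ties them to runs. Deviations from the group mean correlated across genes between same-numbered libraries at r = 0.25 in all cDCs and 0.26 in type 2. With 2 libraries per group both pairs give the same r by construction. Some genes followed the library number more closely, as Irf7 and Isg15 did in type 1 cells, where few cells held their UMIs. With the replicate block 96 genes were called in all cDCs (60 higher, 36 lower) and 40 in type 2 (22 higher, 18 lower). Between the types 386 (DESeq2) to 841 (no filter) genes were called, and 390 to 479 leaving out 1 library. The interaction with MHC class II positive macrophages called 2 to 34 genes leaving out 1 library (2 without HI 2, 12 without HI 1, 27 without naive 1, 34 without naive 2) and 0 without cells of other-lineage or maturation genes. That with all other kept cells called 88 (without HI 1) to 149, and 59 without those cells, where Igkc reversed to 0.30, as it did without cells of other-lineage markers alone. For all these changes the cause was not tested. The fits of HI within type 1 cells and of type by HI were not run, since HI 1 held 4 type 1 cells. The exclusions of cells with other-lineage or maturation genes were chosen after seeing the data.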
